A study of Rattus norvegicus with 19 samples.

Results

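Transcriptionally active putative enhancers (TAPEs) are stretches of open chromatin outside genes that carry RNA reads from both strands, and the long TAPEs described here are those that span at least 4000 bp in the Rn6 rat assembly. The 27538 TAPEs used here each had a gene within 1 Mb with a deposited correlation. The set is smaller than that of the paper, since TAPEs without such a gene are absent. Length was taken as the end position minus the start position plus 1, and 540 of the 27538 TAPEs met the limit. They were set beside the 15842 TAPEs of 1500 to 2500 bp, a class centred near the median TAPE of 1807 bp. At the limit itself, a member of 4000 bp lay at chr2:263675449-263679448 with 85 reads, and a TAPE just left out had 3999 bp and 24 reads at chr19:36442984-36446982. Total RNA-seq was made from primary neuron cultures of Sprague-Dawley rat cortex, hippocampus or striatum, taken at embryonic day 18 and kept for 11 days in vitro. Cultures of each region received neurobasal medium (vehicle) or potassium chloride (KCl), which depolarizes neurons, for 1 h before RNA was collected. Each region and treatment gave 3 libraries, and striatum vehicle gave 4, for 19 libraries in all. That split of the striatum libraries follows the sample titles, whereas the supplementary methods assign more of them to KCl than to vehicle, and a wrong title would change every KCl value that uses striatum. The sample labels put KCl at 25 mM. The series text and the paper's account of these libraries have 10 mM, and these data cannot tell which was used.

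Active enhancers are often transcribed in both directions, and the resulting enhancer RNA (eRNA) is short-lived and scarce beside mRNA. Enhancers act on promoters that can lie far away along the chromosome, so the gene nearest to an enhancer need not be its target. In neurons, membrane depolarization opens calcium channels and switches on activity-regulated enhancers together with immediate early genes. Long stretches of accessible chromatin can hold several adjacent elements, and the term used for dense groups of strong enhancers in one place is super-enhancer. The files give no measure of histone marks, so no such class was assigned to the TAPEs described here.

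The level of a TAPE was the deposited CPKM, which is RPKM counted over both strands. Library totals, estimated from the spacing of the CPKM values, were 46.4 to 72.5 M reads. The paper states fewer reads per sample, and these totals were not checked against another source. Of the values in long TAPEs with 1 to 4 reads, 72.8% were even numbers of reads, as when both mates of a fragment are counted. Reads without molecular identifiers are not independent molecules. All intervals given here are binomial over TAPEs, and they cover neither the counting of reads nor the spread between libraries. The title of cortex vehicle replicate 3 names cortex but its tissue label names striatum, and the title was followed. At the long TAPE on chromosome 16 that was nearly silent outside striatum it had a CPKM of 0.00721, where the 7 striatum libraries had 0.15 to 0.264. That TAPE was picked with this library already counted as cortex, so its value is no independent check of the title. Gene profiles solved from the deposited correlations had their highest regional mean in the named region for 3 of 3 cortical glutamatergic, 4 of 4 hippocampal and 6 of 6 striatal projection neuron markers with a profile. These profiles have no scale, so marker levels at or near 0 could not be read from them. In bulk RNA, fewer cells of a type and less RNA per cell cannot be told apart.

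Long TAPEs gathered more reads than TAPEs of 1500 to 2500 bp, while their median level per length was close. The median long TAPE was 4634.5 bp long (quartiles 4246 and 5466 bp), 189 reached 5000 bp and 25 reached 10000 bp. Summed over the 19 libraries, the median long TAPE held 38 reads and the median TAPE of 1500 to 2500 bp held 14. The median of the mean CPKM was 0.00702 in long TAPEs, 0.00682 in the shorter class and 0.00707 over all TAPEs. The upper end differed more than the middle. The upper quartile was 0.0214 in long TAPEs and 0.0145 in the shorter class, and a CPKM of at least 0.1 was found in 42 long TAPEs (7.78%) and 464 of the shorter class (2.93%). A single library had at least 1 read in 54.1% to 71.5% of the long TAPEs and in 32.8% to 45.1% of the shorter class. These are descriptions of the classes, since TAPEs are not replicates of a condition.

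**Figure D1:**
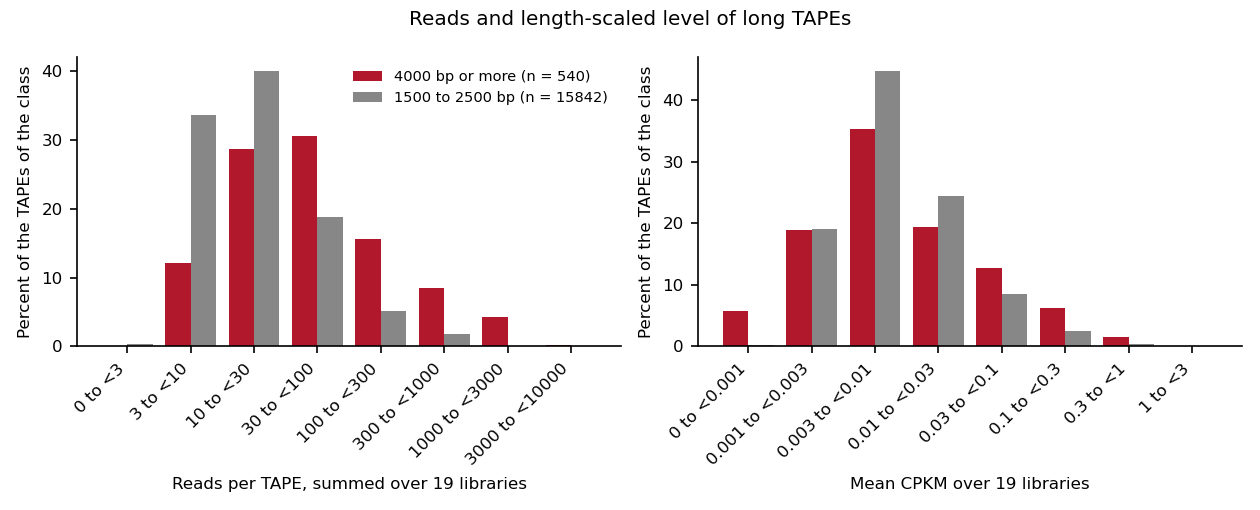
Percent of the 540 long TAPEs (red) and of the 15842 TAPEs of 1500 to 2500 bp (grey) in bins of total reads over the 19 libraries (left) and of mean CPKM (right). The reads of long TAPEs lie to the right of the shorter class, with medians of 38 and 14, while the CPKM medians are 0.00702 and 0.00682 and the long class has a larger share at both ends.

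Extreme length did not go with a high level. The longest TAPE, chr1:39517400-39545355, spanned 27956 bp and held 20 reads, 18 of them in the 6 cortex libraries and 2 in a hippocampus library, and the 7 striatum libraries were listed at 0. The next in length were chr15:50048724-50067894 (19171 bp, 61 reads) and chr2:49352791-49371503 (18713 bp, 45 reads). None of these 3 reached the level needed for a test. Among the 189 TAPEs of at least 5000 bp, the ratio of mean CPKM to that of the shorter class was 0.989 ± 0.136 (SE over TAPEs), against 1.8 ± 0.247 for all 540.

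The long TAPEs with the highest CPKM were instead close to 4 kb. The highest was chr2:12593842-12597913 (4072 bp, 3186 reads), 79 kb from the start site of Tmem161b, a gene for a membrane protein. It had a CPKM of 0.805 ± 0.0962 in 6 cortex libraries (mean ± SD), 0.944 ± 0.119 in 6 hippocampus libraries and 0.398 ± 0.108 in 7 striatum libraries, and the striatum libraries, at 0.314 to 0.584, lay below all 12 others. The next, chr9:49493824-49498122 (4299 bp, 2762 reads), lay 16950 bp from Pou3f3, which encodes a POU-domain transcription factor of developing forebrain neurons, and 13841 bp from the start site of LOC103690528. In cortex its CPKM was 0.691 ± 0.075, in striatum 0.727 ± 0.081 and in hippocampus 0.301 ± 0.0753. Here hippocampus was the low region, with every library at or under 0.409 and every other library at or above 0.589. Next came the TAPEs near Foxp1 (0.481), near Mpped1 (0.411) and near Spen, a gene for a transcriptional repressor (0.381).

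Long TAPEs lay farther from annotated genes than the shorter class, and this held at the same number of reads. The nearest gene start site was a median of 139 kb from the TAPE centre for long TAPEs and 82.2 kb for the shorter class. A start site lay within 50 kb for 129 long TAPEs (23.9%, exact Clopper-Pearson 95% interval 20.4 to 27.7) and for 37.4% of the shorter class (36.7 to 38.2). Within 10 kb the shares were 2.96% (16 TAPEs) and 8.16%. The median number of genes within 1 Mb was 8 and 11. Only genes within 1 Mb with a deposited correlation are counted, and TAPEs without one are absent, so larger distances are cut off. Among TAPEs with 30 to under 100 reads the median distance was 165 kb in the long class and 64.9 kb in the shorter class, and with 300 to under 1000 reads it was 132 kb and 29.7 kb. In the shorter class the distance fell with reads from 103 kb (under 10 reads) to 38.3 kb (1000 or more), while in the long class it went from 121 kb to 155 kb. The intervals treat TAPEs as independent, and many long TAPEs lie side by side, so they are too narrow.

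The deposited correlations between TAPE and gene levels were no higher in long TAPEs once reads were matched. The gene with the highest correlation over the 19 libraries reached r > 0.5 for 221 long TAPEs (40.9%, 36.7 to 45.2) and 34.4% of the shorter class (33.6 to 35.1). With under 10 reads the shares were 22.7% and 24.6%, with 30 to under 100 reads 41.2% and 46.9%, with 300 to under 1000 reads 63.0% and 70.6%, and with 1000 or more reads 75.0% in both classes. The share rose with reads in both classes, and within each of the first 5 bins of reads the long class was the lower one. The nearest gene was also the best-correlated gene for 117 long TAPEs (21.7%) and for 19.6% of the shorter class. Genes offered per TAPE differed between the classes, and their part in these shares was not tested.

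**Figure D2:**
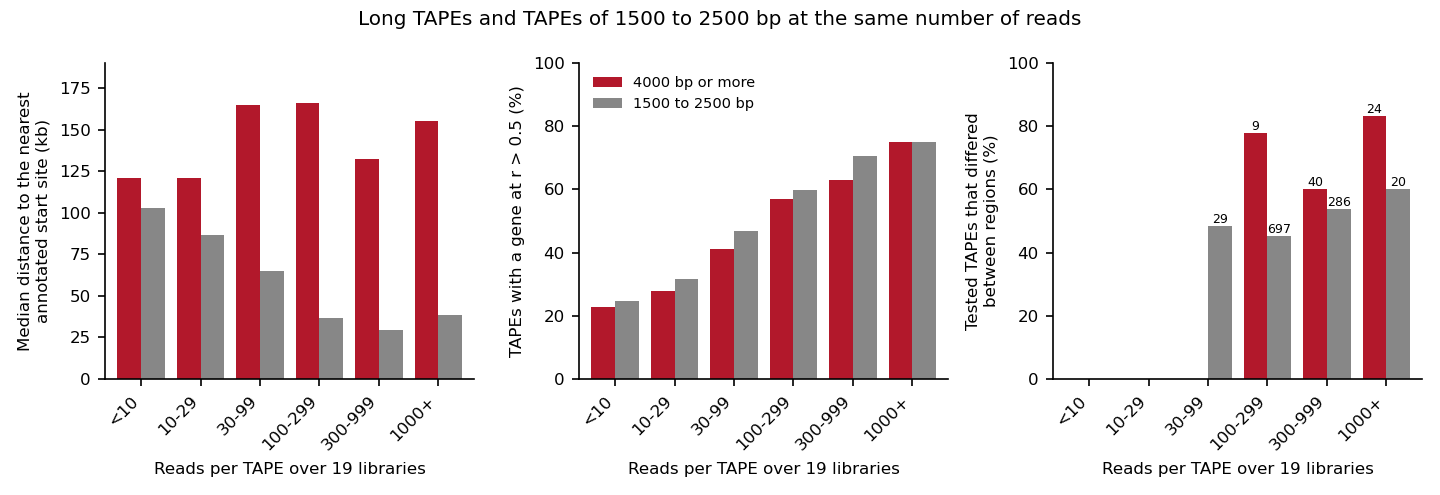
Long TAPEs (red) and TAPEs of 1500 to 2500 bp (grey) in bins of total reads: median distance to the nearest start site in kb, percent of TAPEs with a gene at r > 0.5, and percent of tested TAPEs that differed between regions, with the number tested above each bar. The distance is longer in the long class in every bin, the share at r > 0.5 is 75.0% in both classes at 1000 or more reads, and the share that differed between regions is 83.3% of 24 and 60% of 20 there.

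Many long TAPEs lay near another long TAPE, while 316 of the 540 lay alone. Another long TAPE lay within 100 kb for 224 of the 540 (41.5%), and a long TAPE lay within 100 kb of 6.04% of the shorter class. The 224 formed 56 runs, and 15 runs of at least 5 members held 123 TAPEs (22.8%) on 6 chromosomes. The largest runs had 12 members, at chr17:44211987-44579781 and chr19:27791004-28240162. Chromosome 19 held 69 long TAPEs, 12.8% of the class against 2.92% of all TAPEs, but only 2 of them were high enough to be tested. Chromosome 7 held 57 (10.6% against 6.34%), with 17 tested, and chromosome 17 held 34 (6.3% against 4.04%). Members of runs were longer than those alone (median 5024.5 and 4473.5 bp), held more reads (61 and 30) and lay farther from a start site (205 and 104 kb). Only 7 long TAPEs overlapped another TAPE, so the runs are not the same interval listed again. Genome sequence of the build in use was not used here, so repeat content, segmental duplication and mappability in these runs were not tested.

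**Figure D3:**
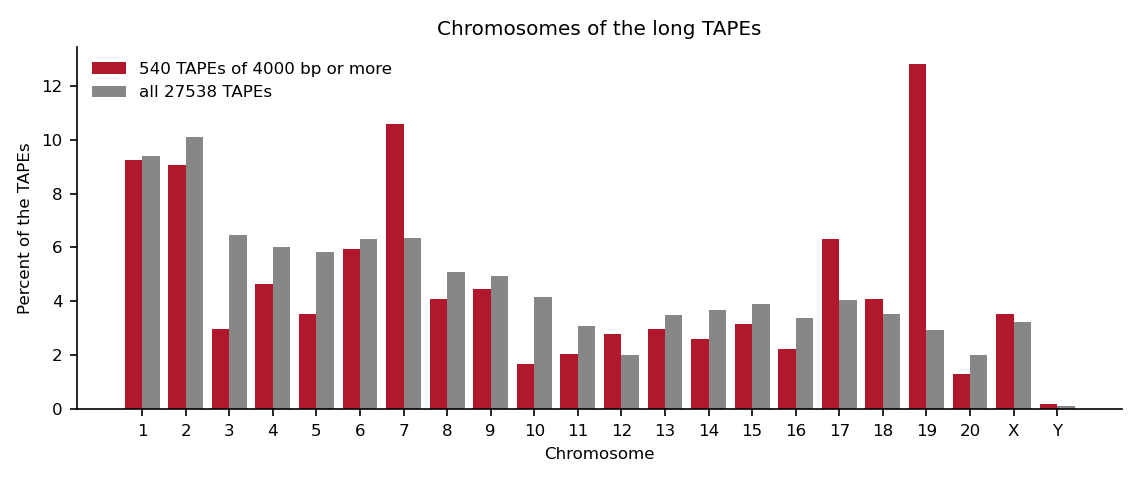
Percent of the 540 long TAPEs (red) and of all 27538 TAPEs (grey) on each chromosome. Chromosomes 19 and 7 stand above the rest, with 12.8% and 10.6% of the long TAPEs against 2.92% and 6.34% of all TAPEs.

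Region and KCl were tested where the mean CPKM reached 0.05, on log2(CPKM + 0.05) with limma and Benjamini-Hochberg adjustment over all 1870 TAPEs tested, and all fold changes below are on this scale. The added 0.05 makes changes of low TAPEs look smaller than they are. Of the 540 long TAPEs, 73 (13.5%) passed this filter and 467 did not. Of the shorter class, 1032 (6.51%) passed. The tested long TAPEs had a median of 35.5 reads per library and the tested shorter TAPEs 10.6, so the same CPKM was measured more precisely in the long class. A TAPE high in 1 region alone can pass the filter through that region, so the counts below describe the 73 and stand for no others. The paper calls its replicates biological, but the labels do not say whether libraries came from separate cultures. The p-values therefore measure the spread between these libraries only.

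Region-dependent RNA was found at 51 of the 73 tested long TAPEs (69.9%, limma F-test, adjusted p under 0.05), where 48.8% of all tested TAPEs and 47.9% of the shorter class passed. Long TAPEs held more reads, so the shares were also set side by side within bins of reads. The gap was smaller with 300 to under 1000 reads and not in the other bins. With 300 to under 1000 reads, 24 of 40 long TAPEs (60%) and 154 of 286 shorter TAPEs (53.8%) passed. With 1000 or more reads the counts were 20 of 24 (83.3%) and 12 of 20 (60%), and with 100 to under 300 reads 7 of 9 (77.8%) and 314 of 697 (45.1%). The outer bins hold few long or few shorter TAPEs, and no test between the classes was made. With 100 to under 300 reads the level filter let 9 of 84 long TAPEs and 697 of 816 shorter ones be tested. A longer TAPE needs more reads to reach a CPKM of 0.05, so reads are not matched among the tested TAPEs of that bin. Of tested long TAPEs with another long TAPE within 100 kb, 25 of 31 passed (80.6%), and of those without one 26 of 42 (61.9%). Such neighbours may not be independent. Without cortex vehicle replicate 3, 51 long TAPEs passed and 50 of them were shared with the full set.

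The region with the lowest RNA was most often striatum. Of the 51 region-dependent long TAPEs, 29 (56.9%) had their lowest mean in striatum, 16 in hippocampus and 6 in cortex, while striatum was lowest in 38.8% of all 912 region-dependent TAPEs. In pairwise tests, 30 long TAPEs (41.1%) were higher in cortex than in striatum and 8 were lower, where 16.6% of all tested TAPEs were higher and 16.6% lower. Likewise 30 (41.1%) were higher in hippocampus than in striatum against a background of 16.9%, and 18 were lower against 26.1%. Between cortex and hippocampus, 11 were higher in cortex (background 8.98%) and 6 in hippocampus (background 5.88%). The share of all TAPE reads that fell in long TAPEs followed the same order, with 8.33% to 8.83% in the 6 cortex libraries, 7.52% to 7.93% in hippocampus and 6.33% to 6.66% in striatum. The 3 ranges did not overlap. Without the 5 highest long TAPEs, the ranges in cortex (7.15% to 7.7%) and hippocampus (6.8% to 7.21%) overlapped, and striatum (5.25% to 5.59%) lay below both. Long TAPEs with another long TAPE within 100 kb had striatum lowest at 17 of 25 region-dependent members, and those without at 12 of 26. Markers of non-neuronal cells moved with region as well: none of the 5 astrocyte or 6 oligodendrocyte lineage genes, of the 3 microglia genes with a profile, or the 1 endothelial gene with a profile had its highest mean in striatum. All 6 GABAergic neuron genes with a profile did. Their part in the region differences was not tested.

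A run at the start of chromosome 7 showed the pattern at several neighbours. The run chr7:424317-656550 had 8 long TAPEs, and all 5 that were tested were region-dependent with their lowest mean in striatum. These 5 and the next member along the chromosome were picked after their values were seen. The highest, chr7:535640-539747, had a CPKM of 0.339 ± 0.0834 in cortex, 0.39 ± 0.0616 in hippocampus and 0.144 ± 0.0225 in striatum (SD). Its striatum libraries (0.111 to 0.184) lay under all others (0.205 and above). Its neighbour chr7:470042-474319 had 0.273 ± 0.061, 0.311 ± 0.0535 and 0.117 ± 0.0197. A TAPE outside the run, chr7:1009966-1015881 near Arl13b, a gene of the primary cilium, had 0.126 ± 0.0532, 0.139 ± 0.0441 and 0.0596 ± 0.0182. The only genes within 1 Mb of the run's members were 3 per TAPE, of which LOC102554748 had the highest correlation (r = 0.692 for the first and 0.68 for the second). Members of a run share a neighbourhood and may not be independent.

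RNA was selective for 1 region, that is region-dependent and higher there than in each other region with both unadjusted pairwise p-values under 0.05, at 23 long TAPEs. Of these, 8 were selective for cortex (11.0% of the 73, against 5.67% of all tested), 8 for hippocampus (11.0% against 6.74%) and 7 for striatum (9.59% against 16.7%). The values of the 5 with the smallest F-test p in each region follow.

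In cortex the leading TAPE was chr7:124669911-124674064 (4154 bp, 1964 reads), 8.3 kb from Mpped1, which encodes a metallophosphoesterase-domain protein of brain. Its CPKM was 0.83, 0.79 and 1.19 in cortex vehicle, 0.731, 0.773 and 0.817 in cortex KCl, 0.0241 to 0.104 (median 0.053) in hippocampus and 0.198 to 0.516 (median 0.335) in striatum. Every cortex library was above every other library, and every hippocampus library below. The difference between cortex and hippocampus was 3.07 ± 0.21 (SE, log2, limma adjusted p = 2.03e-12) and that between cortex and striatum 1.3 ± 0.21 (limma adjusted p = 7.81e-06). The deposited correlation with Mpped1 was 0.929, and the highest was 0.943 with Efcab6, 257 kb away. Within cortex, hippocampus and striatum the correlation with Efcab6 was 0.625, 0.485 and 0.00763.

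The long TAPE chr5:36671476-36676099 (4624 bp, 1078 reads) lay 9.6 kb from Pou3f2, a POU-domain transcription factor gene of upper-layer cortical neurons. Its CPKM was 0.274 to 0.389 (median 0.336) in cortex, 0.0216 to 0.0763 (0.0589) in hippocampus and 0.18 to 0.314 (0.236) in striatum. Hippocampus stood apart from both others, while cortex and striatum overlapped and differed by 0.44 ± 0.18 with a limma adjusted p of 0.0621. The correlation with Pou3f2 was 0.922 over the 19 libraries but -0.482, -0.308 and -0.0382 within cortex, hippocampus and striatum, so the high value was seen across regions and not within them.

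The other 3 cortex-selective TAPEs of this group had a smaller range between regions. At chr20:47722119-47726352, 128 kb from Scml4, cortex had a CPKM of 0.316 ± 0.0346, hippocampus 0.226 ± 0.0409 and striatum 0.0828 ± 0.038, and the cortex and hippocampus libraries overlapped (limma adjusted p = 0.186 for that pair). At chr1:276009771-276013892, 54 kb from Tectb, it was 0.559 ± 0.0797, 0.296 ± 0.0561 and 0.29 ± 0.066, with the highest correlation to Tcf7l2, a transcription factor gene of Wnt signalling (r = 0.88, 648 kb, and 0.239, 0.148 and 0.639 within cortex, hippocampus and striatum). At chr11:15760102-15764514, 290 kb from the microRNA gene Mir99a and 291 kb from Mirlet7c1, it was 0.349 ± 0.0634, 0.202 ± 0.0232 and 0.13 ± 0.0257. A second long TAPE in this run, chr11:15856385-15860785, named after its values were seen, had 0.329 ± 0.0499, 0.373 ± 0.0846 and 0.0617 ± 0.0124, and its striatum libraries lay below all others.

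MicroRNA genes were the nearest annotated gene of 5 long TAPEs (0.926%, against 1.47% of the shorter class), 3 of which were tested. Both chromosome 11 TAPEs lay by the locus of Mir99a and Mirlet7c1, and chr7:126535811-126540011, described with KCl below, lay 52 kb from Mirlet7c2. MicroRNAs pair with target mRNAs through the seed, bases 2 to 8 from the 5′ end. The mature sequences of these loci held by the RefSeq table (GRCr8) are shown because Mirlet7c1 and Mirlet7c2 give the same let-7c-5p from separate chromosomes, with the seed in capitals.
rno-let-7c-5p (Mirlet7c1 and Mirlet7c2): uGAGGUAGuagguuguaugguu
rno-let-7c-2-3p (Mirlet7c2): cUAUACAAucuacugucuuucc
rno-miR-99a-3p (Mir99a): cAAGCUCGuuucuaugggucug
The 3 seeds shown differ. Mir99a was held with its 3p form only and Mirlet7c1 with its 5p form only, so other forms of these loci may be missing. The TAPE reads measure RNA outside the annotated microRNA genes, not the mature forms.

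In hippocampus the leading TAPE was chr2:13057463-13061582 (4120 bp, 920 reads), far from any start site, with Ccnh, the cyclin H gene, nearest at 534 kb. Its CPKM was 0.285 to 0.566 (median 0.372) in hippocampus, 0.117 to 0.345 (0.2) in cortex and 0.00854 to 0.0367 (0.0168) in striatum. All striatum libraries lay below all others, and the ranges of hippocampus and cortex overlapped, with a difference of cortex minus hippocampus of -0.82 ± 0.22 (limma adjusted p = 0.00709). The highest correlation was 0.875 with Rasa1, a Ras GTPase-activating protein gene 637 kb away. Within cortex, hippocampus and striatum it was 0.216, 0.288 and -0.401.

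At chr7:126495750-126500319 (4570 bp, 338 reads), 32 kb from Wnt7b, which encodes a secreted Wnt ligand, CPKM was 0.123 to 0.199 (median 0.178) in hippocampus, 0.0288 to 0.0561 (0.0415) in cortex and 0 to 0.0161 in striatum, where 4 of 7 libraries were at 0. The 3 regions did not overlap. The highest correlation was with Prr5 (r = 0.976, 922 kb), and that with Wnt7b was 0.568. Within cortex, hippocampus and striatum the correlation with Prr5 was 0.588, 0.606 and 0.0941.

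The other 3 were chr13:89437502-89442286, 6.1 kb from Fcgr2b, an inhibitory Fc receptor gene of immune cells, chr11:86922892-86927562, 22 kb from Zdhhc8, a palmitoyltransferase gene, and chr6:105531245-105536003, 15 kb from Map3k9, a kinase gene. Near Fcgr2b the CPKM was 0.284 ± 0.025 in hippocampus, 0.17 ± 0.0525 in cortex and 0.0624 ± 0.0218 in striatum. Near Zdhhc8 it was 0.356 ± 0.0841, 0.224 ± 0.0468 and 0.0902 ± 0.0366, and the hippocampus and cortex libraries overlapped (limma adjusted p = 0.0702 for that pair). Near Map3k9 the order differed, with 0.113 ± 0.0227 in hippocampus, 0.0449 ± 0.0135 in striatum and 0.0201 ± 0.0204 in cortex, and the correlation with Map3k9 itself was -0.846. The 3 microglia genes with a profile had their highest mean in hippocampus, and their part in the value near Fcgr2b was not tested.

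In striatum the highest of the 5 was chr4:131956666-131960666 (4001 bp, 2092 reads), 152 kb from Eif4e3 and 264 kb from Foxp1, a transcription factor gene of striatal projection neurons. Its CPKM was 0.675 to 0.962 (median 0.788) in striatum, 0.294 to 0.517 (0.402) in cortex and 0.163 to 0.223 (0.177) in hippocampus, with no overlap between any pair of regions. The log2 difference was -1.88 ± 0.15 for hippocampus minus striatum (limma adjusted p = 6.34e-12) and -0.92 ± 0.15 for cortex minus striatum (limma adjusted p = 7.82e-06). The correlation with Foxp1 was 0.976 over all libraries, 0.779 within striatum, 0.184 within cortex and -0.196 within hippocampus, while that with the nearer Eif4e3 was -0.739.

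The TAPE closest to an on or off pattern was chr16:82864645-82868764 (4120 bp, 340 reads), 133 kb from Tex29. Its CPKM was 0.15 to 0.264 (median 0.209) in striatum, 0 to 0.0105 in cortex and 0 to 0.0293 in hippocampus. The log2 difference of cortex minus striatum was -2.18 ± 0.19 (limma adjusted p = 2.2e-10). The highest correlation was with Ankrd10 (r = 0.926, 339 kb), and within cortex, hippocampus and striatum it was 0.512, 0.678 and -0.447. The other 3 were chr9:12234759-12239856, 397 kb from the germ cell gene Dazl, with 0.317 ± 0.0342 in striatum, 0.162 ± 0.0333 in cortex and 0.13 ± 0.0333 in hippocampus, a TAPE of 4018 bp at chr3:9483883-9487900 with 0.109 ± 0.0343, 0.0395 ± 0.0227 and 0.0319 ± 0.012, and chr8:46215904-46220722, 319 kb from the sterol synthesis gene Sc5d, with 0.0894 ± 0.0307, 0.0512 ± 0.0232 and 0.02 ± 0.0105. At the last of these striatum and cortex overlapped (limma adjusted p = 0.0933).

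**Figure D4:**
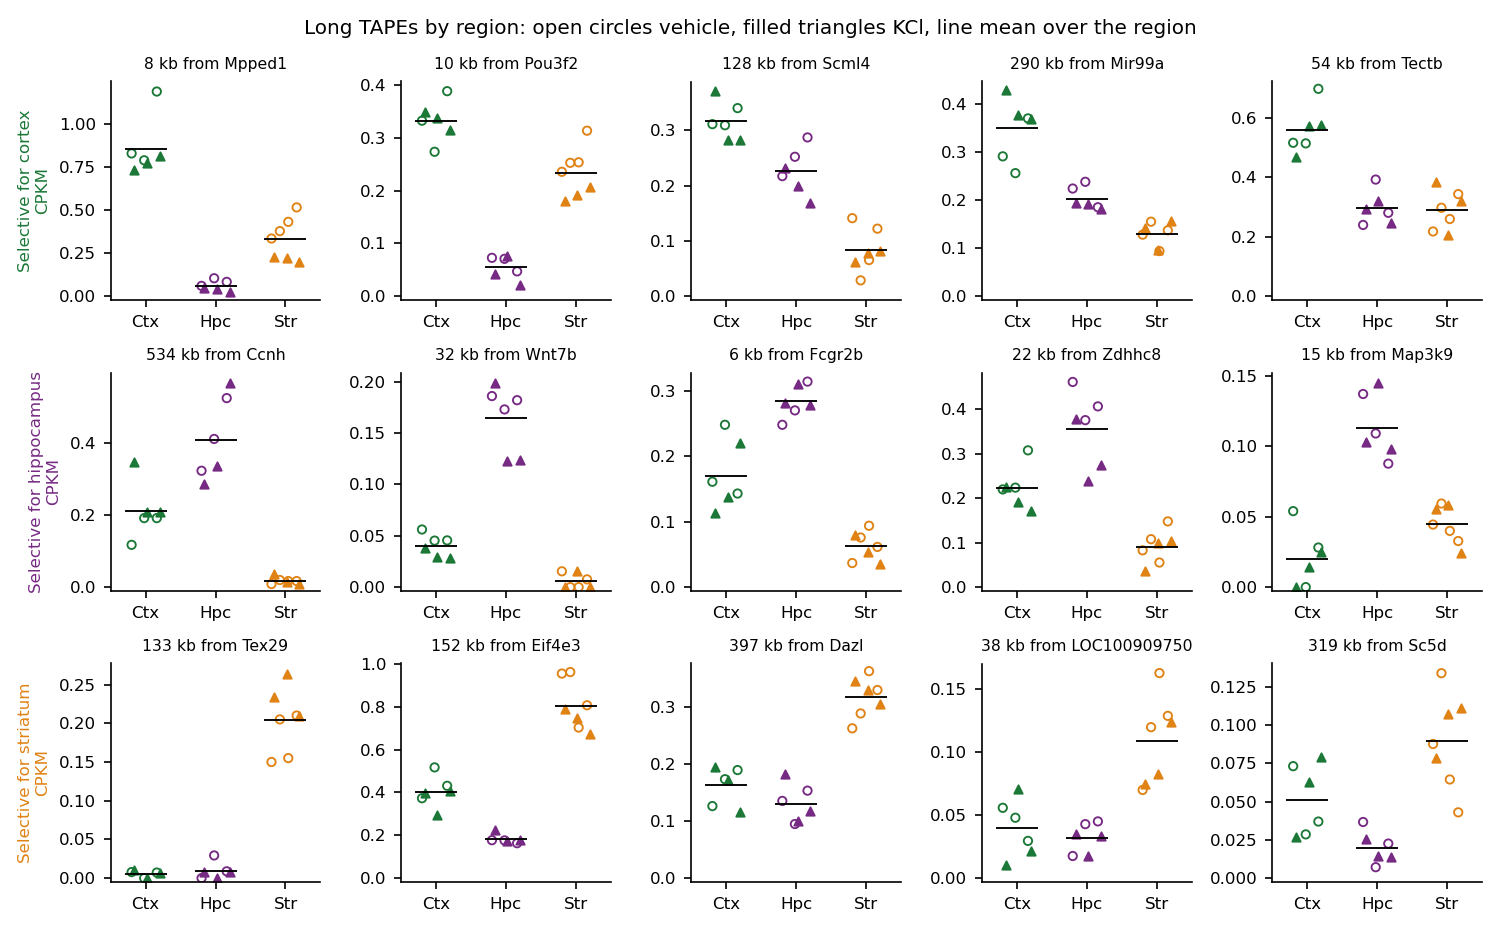
CPKM of 15 long TAPEs, the 5 with the smallest F-test p among those selective for each region, in 6 cortex, 6 hippocampus and 7 striatum libraries. Open circles are vehicle, triangles KCl and lines the regional mean; the TAPE 152 kb from Eif4e3 runs from 0.675 to 0.962 in striatum and from 0.163 to 0.223 in hippocampus, and the TAPE 534 kb from Ccnh stays at or under 0.0367 in striatum.

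KCl left most long TAPEs without a change that passed the test. Over all tested TAPEs, the median log2 difference between KCl and vehicle, fitted over the 3 regions with region as a term, was -0.13, and it was -0.11 for the long and -0.14 for the shorter class. Changes are best read against that shift. In this fit 3 long TAPEs rose (4.11% of 73, against 1.66% of all tested) and 4 fell (5.48% against 5.19%). At an unadjusted p under 0.05, 4 were higher (background 4.01%) and 14 lower (background 19.6%). With each library centred on its median, all 7 kept their sign, the 3 that rose and 1 that fell still passed, and the calls over all TAPEs moved from 31 higher and 97 lower to 47 higher and 37 lower. With 300 to under 1000 reads, 11 of 40 long TAPEs and 102 of 286 shorter TAPEs had an unadjusted p under 0.05 in either direction.

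Within single regions calls were few. In cortex 1 long TAPE passed the limma test after adjustment (0.321% of all tested passed) and 7 had an unadjusted p under 0.05 (10.4% of all). In hippocampus none passed (0.0535% of all) and 10 had an unadjusted p under 0.05 (13.3% of all). In striatum none passed (1.23% of all) and 8 had an unadjusted p under 0.05 (15.1% of all). For KCl effects that differ between regions none passed the limma F-test (0.0535% of all), and 2 had an unadjusted p under 0.05 (8.24% of all). Limma voom on the recovered reads gave 2 long TAPEs in cortex (2.74%, against 0.374% of all tested) and 0 in hippocampus (0.0535% of all). It gave 2 in striatum (2.74% against 1.82%) and 1 for the difference between regions (1.37% against 0.214%).

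The first of the 3 that rose in the fit over regions was chr9:105029705-105033771 (4067 bp, 531 reads), 161 kb from Slco6d1, a gene of the organic anion transporter family. Its CPKM was 0.0315, 0.061 and 0.0365 in cortex vehicle and 0.148, 0.124 and 0.162 in cortex KCl. It was 0.0522, 0.0169 and 0.0356 in hippocampus vehicle and 0.168, 0.143 and 0.152 in hippocampus KCl. In striatum it was 0.13, 0.104, 0.149 and 0.085 in vehicle and 0.186, 0.381 and 0.137 in KCl. Vehicle and KCl libraries did not overlap in cortex or hippocampus and overlapped in striatum. The change was 1.0 ± 0.17 (limma adjusted p = 0.000555).

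The long TAPE chr4:66977035-66981159 (4125 bp, 640 reads) lay 23 kb from Kdm7a, a histone lysine demethylase gene, which was also its best-correlated gene (r = 0.549, and 0.787, 0.853 and 0.501 within cortex, hippocampus and striatum). Its CPKM was 0.0777, 0.0836 and 0.072 in cortex vehicle and 0.303, 0.257 and 0.198 in cortex KCl. In hippocampus it was 0.0686, 0.1 and 0.0791 in vehicle and 0.263, 0.128 and 0.218 in KCl. In striatum it was 0.0725, 0.147, 0.0669 and 0.0712 in vehicle and 0.156, 0.125 and 0.242 in KCl. Only striatum vehicle replicate 4, at 0.147, reached into the KCl range of its region. The change was 0.93 ± 0.17 (limma adjusted p = 0.000741), and region made no difference that passed (limma F-test, adjusted p = 0.782).

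The third, chr1:52823514-52827922 (4409 bp, 311 reads), lay 69 kb from Tbxt, the mesoderm transcription factor brachyury. Its CPKM was 0.0182, 0.05 and 0 in cortex vehicle and 0.0586, 0.0687 and 0.0962 in cortex KCl. In hippocampus it was 0.00802, 0.0312 and 0.0329 in vehicle and 0.103, 0.128 and 0.068 in KCl, and in striatum 0.0399, 0.00914, 0.0744 and 0.0744 in vehicle and 0.137, 0.0962 and 0.139 in KCl. Vehicle and KCl did not overlap in any region. The change was 0.9 ± 0.18 (limma adjusted p = 0.00261). All 3 kept their call when any single library was left out.

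Of the 4 that fell, all on chromosome 7, the first was chr7:142513284-142517644 (4361 bp, 1002 reads), 60 kb from Scn8a, the gene of a voltage-gated sodium channel. Its CPKM was 0.173, 0.272 and 0.279 in cortex vehicle and 0.222, 0.123 and 0.191 in cortex KCl. In hippocampus it was 0.227, 0.32 and 0.295 in vehicle and 0.148, 0.174 and 0.111 in KCl, and in striatum 0.222, 0.286, 0.237 and 0.301 in vehicle and 0.104, 0.127 and 0.127 in KCl. The treatments overlapped in cortex alone. The change was -0.67 ± 0.15 (limma adjusted p = 0.00394).

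The cortex-selective TAPE near Mpped1, with its cortex values given above, was 0.0596, 0.104 and 0.0829 in hippocampus vehicle against 0.0463, 0.0425 and 0.0241 in KCl. In striatum it was 0.335, 0.378, 0.432 and 0.516 in vehicle against 0.227, 0.222 and 0.198 in KCl. Treatments did not overlap in hippocampus or striatum and overlapped in cortex. The change over regions was -0.55 ± 0.13 (limma adjusted p = 0.00857), and -0.42 ± 0.13 with centred libraries (limma adjusted p = 0.051).

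The remaining pair rested on smaller changes. The long TAPE chr7:22391023-22396688 (5666 bp, 2214 reads), in a run of 7 long TAPEs 618 kb from LOC300308, had a CPKM of 0.62, 0.455 and 0.558 in cortex vehicle and 0.491, 0.419 and 0.286 in cortex KCl, which overlapped. It had 0.503, 0.495 and 0.582 in hippocampus vehicle against 0.392, 0.361 and 0.391 in KCl, which did not overlap. In striatum it had 0.152, 0.142, 0.183 and 0.238 in vehicle and 0.153, 0.104 and 0.0913 in KCl, which overlapped. The change over regions was -0.43 ± 0.13 (limma adjusted p = 0.0358). The long TAPE near Mirlet7c2, chr7:126535811-126540011 (4201 bp), had 0.244, 0.299 and 0.361 in cortex vehicle against 0.221, 0.188 and 0.191 in KCl, which did not overlap. In hippocampus it had 0.189, 0.418 and 0.216 in vehicle and 0.154, 0.101 and 0.127 in KCl, again without overlap. In striatum it had 0.293, 0.139, 0.251 and 0.169 in vehicle and 0.121, 0.176 and 0.178 in KCl, which overlapped. The change over regions was -0.52 ± 0.16 (limma adjusted p = 0.0398). Each lost its call with centred libraries (limma adjusted p = 0.197 and 0.171). Each also lost it when any 1 of 9 libraries was left out. For the first these were cortex vehicle replicates 1 and 3, cortex KCl replicate 3, hippocampus vehicle replicate 3, hippocampus KCl replicate 2, striatum vehicle replicates 6 and 8 and striatum KCl replicates 5 and 7, with limma adjusted p-values of 0.05 to 0.0691. For the second these were cortex vehicle replicate 3, cortex KCl replicates 2 and 3, hippocampus vehicle replicate 2, hippocampus KCl replicates 2 and 3, striatum vehicle replicates 2 and 6 and striatum KCl replicate 1, with limma adjusted p-values of 0.0553 to 0.0965.

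In cortex alone, chr18:14755646-14759686 (4041 bp, 917 reads) rose, 286 kb from Dtna, which encodes dystrobrevin alpha of the dystrophin complex. Its CPKM was 0.171, 0.0819 and 0.154 in vehicle and 0.491, 0.429 and 0.398 in KCl, with no overlap and a change of 1.43 ± 0.26 (limma adjusted p = 0.0191). In hippocampus it was 0.219, 0.23 and 0.269 in vehicle and 0.346, 0.24 and 0.276 in KCl, which overlapped. In striatum it was 0.0769 to 0.124 in vehicle and 0.0569 to 0.0841 in KCl, also overlapping. The difference of the change between regions had an unadjusted limma p of 0.00012 and an adjusted p of 0.0748, which did not pass. The cortex call was lost without cortex vehicle replicate 2 or cortex KCl replicate 1, 2 or 3, with limma adjusted p-values of 0.0882 to 0.132.

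Values that did not pass in single regions are given as such. In cortex the smallest unadjusted p after the one called belonged to the TAPEs near Kdm7a (1.23 ± 0.28, limma adjusted p = 0.0888) and Slco6d1 (1.07 ± 0.32, limma adjusted p = 0.207). In hippocampus they were the TAPEs near Slco6d1 (1.29 ± 0.29, limma adjusted p = 0.154), chr7:22377219-22381697 in the run with the TAPE 618 kb from LOC300308 (-0.66 ± 0.18, limma adjusted p = 0.203) and the TAPE near Scn8a (-0.77 ± 0.22, limma adjusted p = 0.238). In striatum they were the TAPEs near Mpped1 (-0.79 ± 0.19, limma adjusted p = 0.0715), Scn8a (-0.87 ± 0.22, limma adjusted p = 0.0748) and Tbxt (0.86 ± 0.34, limma adjusted p = 0.259).

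**Figure D5:**
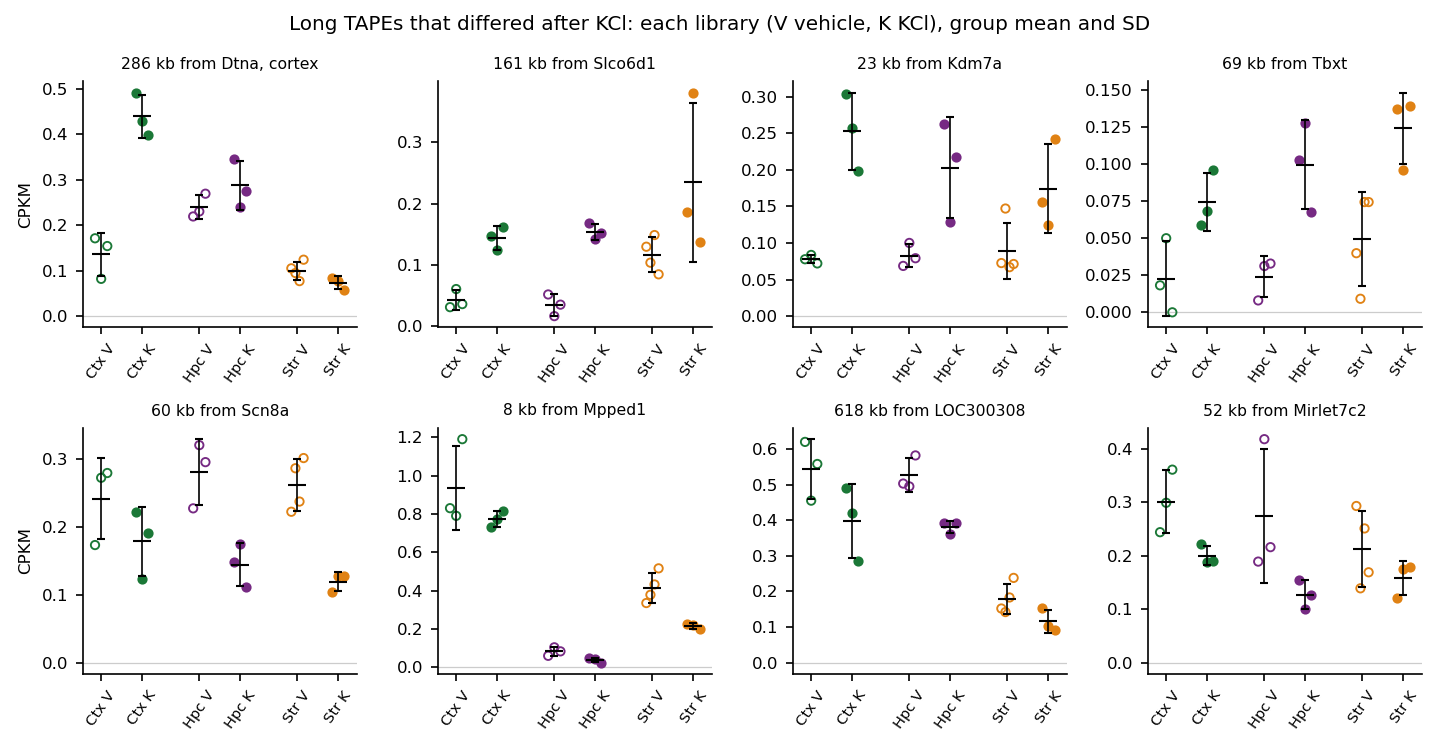
CPKM of the 8 long TAPEs that passed the KCl test in cortex (first panel) or over the 3 regions, in every library (open vehicle, filled KCl) with group mean and SD (n = 3, or 4 for striatum vehicle). Near Tbxt the KCl libraries lie above the vehicle libraries in all 3 regions, while near Scn8a they lie below in hippocampus and striatum and overlap in cortex.

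The nearest genes of the TAPEs that changed over the 3 regions were tested on their relative profiles with an exact two-sided permutation of KCl against vehicle within region (14000 arrangements, Benjamini-Hochberg over the 6 distinct genes with a profile). None passed after adjustment. For Scn8a the difference of KCl minus vehicle was -0.39 standard deviations of its profile (exact p = 0.0109, adjusted 0.0656). Mpped1 had an exact p of 0.122 (adjusted 0.367) and a difference of -0.05. For Slco6d1, Tbxt, LOC300308 and Mirlet7c2 the exact p was 0.241 or more. Kdm7a and Dtna had no profile.

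Genes induced by neuronal activity lay close to few long TAPEs. From a list of 40 such genes, 1 long TAPE (0.185%) had a list gene as its nearest gene, against 146 of the shorter class (0.922%), and 2 long TAPEs (0.37%) against 0.682% had one within 100 kb. Within 1 Mb there were 26 long TAPEs (4.81%) against 4.68% of the shorter class, and counts of 1 and 2 are too small to read a difference from. Both TAPEs within 100 kb lay by Egr1, an immediate early transcription factor gene, at 12.6 and 23.7 kb. The second, chr18:27679178-27683531 (4354 bp, 217 reads), was below the level filter, with 0.0552, 0.00633 and 0.0273 in cortex vehicle and 0.0643, 0.108 and 0.0873 in cortex KCl. These did not overlap, but with TAPEs filtered on reads in place of level the change of 0.81 ± 0.28 had a limma adjusted p of 0.262. The values in hippocampus (0.0487, 0.0554 and 0.0583 in vehicle, 0.00402, 0.0608 and 0.0459 in KCl) and striatum (0.00925 to 0.0516 and 0.0254 to 0.0434) overlapped.

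Forebrain transcription factor genes, by a list of 66 of which 62 were in the table, were the nearest gene of 11 long TAPEs (2.04%, against 1.96% of the shorter class) and lay within 100 kb of 6 (1.11% against 0.631%). Beside Pou3f2 and Pou3f3, described above, these were Neurod6 with 2 long TAPEs of 50 and 70 reads, Sox11 with 1 of 15 reads and Zbtb18 with 1 of 232 reads. The TAPE near Zbtb18, a repressor gene of cortical development, at chr13:95600586-95606085 (5500 bp, 13.7 kb away) had a CPKM of 0.0306 to 0.0513 in cortex, 0.0257 to 0.138 in hippocampus and 0 to 0.00697 in striatum. With TAPEs filtered on reads, hippocampus exceeded striatum by 1.13 ± 0.15 (limma adjusted p = 1.49e-07). The TAPE chr2:5730918-5736374 (5457 bp, 256 reads), 154 kb from Nr2f1, the gene of the nuclear receptor COUP-TFI, had 0.0328 to 0.107 in cortex, 0.0128 to 0.0432 in hippocampus and 0 to 0.0406 in striatum, with cortex above striatum by 0.92 ± 0.16 (limma adjusted p = 1.91e-05). Further long TAPEs whose nearest gene was on this list, by Mef2c (28 reads) and Sox11 (31 reads, at 217 kb), were too shallow for either filter.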

How the data were processed

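The 19 total RNA-seq libraries (rRNA-depleted, directional, paired-end) of rat neuron cultures were analysed from the table of TAPEs and genes. The authors trimmed reads with Trim Galore 0.4.5, aligned them to rn6 with STAR, and kept reads with a mapping quality of at least 20. They merged open chromatin peaks, added 500 bp at each side, kept intergenic regions with reads from both strands, and counted reads in SeqMonk with duplicates kept. The deposited values are RPKM (called CPKM), not log transformed, and the deposited correlation score is the Pearson r of TAPE and gene levels, over all 19 libraries or within a region, for genes within 1 Mb. All coordinates are those of the deposited table. The length of a TAPE includes the flanks.

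Reads were recovered from CPKM and TAPE length, with each library total estimated from the spacing of its values. On that scale 100% of the values came out whole (within 0.01), which does not check the totals themselves. Fits used limma 3.58.1 (lmFit, eBayes with trend) in R 4.3.3 on log2(CPKM + 0.05) where the mean CPKM was 0.05 or more, two-sided, adjusted over all 1870 tested TAPEs, since the deposited values are normalized. Limma voom on the recovered reads was an alternative. KCl was fitted within each region and over all libraries with region as a term, and regions were compared with both treatments pooled. The fit was tested on simulated data. Gene profiles over the libraries were solved from the deposited correlations for 10970 of 17715 genes. Python 3.11.15 with numpy 2.4.6, pandas 2.3.3 and scipy 1.17.1 did the rest, and matplotlib 3.10.9 drew the figures.

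Named TAPEs were the 3 longest, the 5 with the highest CPKM, all that passed for KCl or the 3 with the smallest p where fewer passed, the 5 with the smallest F-test p per selective class, those at the length limit, and at most 10 whose nearest gene was on a list. The members, lists and tests were chosen with earlier results of these data known. The striatum titles skip some numbers, and libraries with those numbers were not analysed here. Of the TAPEs that this rule names, 2 are not reported here.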

Additional observations from a re-analysis of the deposited data

Results flagged for a closer look

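Among 38 named TAPEs, 2 had a striatum vehicle library that stood apart from the other 3 by Dixon's criterion for groups of 4. By chance that criterion marks about 1 group in 20. At chr4:66977035-66981159 near Kdm7a, striatum vehicle replicate 4 had a CPKM of 0.147 and the others 0.0669, 0.0712 and 0.0725. At chr13:95600586-95606085 near Zbtb18, striatum vehicle replicate 8 had 0.00628, which is 2 reads, and the others 0. With 3 libraries at 0 any value above 0 meets the criterion, so nothing is read from this one.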

How the results depend on the processing

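The number of long TAPEs called depended on the filter and the model more for KCl than for region. For region, 47 to 73 were called under other pseudocounts, filters, centring, voom or a treatment term, 42 to 51 of the 51 among them. With a library left out, 48 to 51 were called. The main share of 69.9% (48.8% of all tested) became 68.2% with the filter on reads (56.2% of all). It became 11.5% with no filter (7.36% of all), 64.4% with centred libraries (46.6%) and 78.1% with voom (47.6%). For KCl over the 3 regions, 7 (9.59%, against 6.84% of all tested) became 3 with no filter (0.556% against 0.2%), 12 with a filter on reads (11.2% against 11.5%), 4 with centred libraries (5.48% against 4.49%), 14 with voom (19.2% against 7.43%), and 5 to 8 with a library left out. In cortex, 1 became 2 with the filter on reads, centred libraries, voom or 1 fit of all 6 groups, 0 with no filter, and 0 to 1 with a library left out. In hippocampus, 0 became 1 with the filter on reads or the fit of 6 groups, in striatum 2 with voom, and for the interaction 1 with a pseudocount of 0.5, the filter on reads or voom. Over all TAPEs the counts of these fits moved too, and the cause was not tested. Of members of at least 3000 bp, 233 were tested. The calls were 2 in cortex (0.858%, against 0.321% of all tested) and 3 in striatum (1.29% against 1.23%). They were 18 over regions (7.73% against 6.84%) and 135 for region (57.9% against 48.8%). Of members of at least 5000 bp only 12 were tested. The calls in the same order were 0, 0, 1 (8.33%) and 9 (75.0%). The ratio of mean reads to the class of 1500 to 2500 bp went from 4.41 to 3.1 and 3.26, a start site within 50 kb from 23.9% to 30.5% and 16.4%, the CPKM ratio to 0.989 and a gene at r > 0.5 to 35.4% at 5000 bp. With the replicate block, cortex gave 0 calls for KCl, hippocampus 0, and cortex against hippocampus 16 in place of 17 (18 from these libraries alone, added after the data were seen). Same-numbered libraries deviated together with a correlation of only -0.042 to 0.015. Counting noise at these read depths lowers such a correlation, so it cannot decide whether the numbers pair the libraries. No block was possible in striatum because its titles share no number between treatments. The level filter left 467 of the 540 long TAPEs untested, and the filter on reads tested 107.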
